A study of Mus musculus with 103 samples.

Results

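The levels of 7 chromatin genes were followed in single mouse embryos at the 2-cell stage. Of these, 3 are maternal factors, namely H1foo, Npm2 and Dppa3, and 4 are histone genes of the replication-dependent clusters, namely Hist1h2ao, Hist2h3c1, Hist1h3f and Hist1h1a. They were taken by symbol, and all 7 were among the 7894 genes of the deposited table of 82 embryos made with sperm heads and 21 made with whole sperm. All embryos were of the FVB strain and came from oocytes of females on a Control diet. Each was fertilised by intracytoplasmic sperm injection (ICSI), grown in KSOM medium and collected 28 hours later. One source of sperm was the rete testis, the exit of the testis, and the other was the cauda epididymis, the store of mature sperm. Embryos made with sperm heads alone fell into 4 groups: 20 with cauda heads from Control-fed males, 17 with cauda heads from males on a Low Protein (LP) diet, 22 with rete heads from Control-fed males and 23 with rete heads from LP males. Embryos made with whole sperm numbered 9 for the cauda and 12 for the rete. The labels give no diet for the males behind the whole sperm, and a header row of the table names the Control diet. Nothing in the labels says which embryos shared a male, a female or an injection day, so p-values measure the spread between embryos only. Of 19 markers of the 2-cell embryo 18 were in the table.

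After fertilisation, sperm chromatin packed with protamines is rebuilt with histones from the egg. H1foo encodes the linker histone of the oocyte, which is laid down on both parental genomes and is later replaced by somatic linker histones. Npm2 encodes nucleoplasmin, a histone chaperone of the oocyte needed for its nucleolus-like bodies. Dppa3, also called Stella, encodes a protein of the oocyte that shields maternal DNA from loss of methylation. The replication-dependent histone genes supply nucleosomes in S phase, and most of their messages end in a stem loop rather than in a poly(A) tail, although a minority carry a tail.

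The 3 maternal genes have introns and lie apart from the histone clusters. On mm10 (GRCm38, GENCODE models), H1foo is a gene of 5 exons at chr6:115944938-115950231, Npm2 one of 9 exons at chr14:70647302-70653084 and Dppa3 one of 4 exons at chr6:122626410-122630272. The 4 histone genes have 1 exon each. Hist1h2ao lies at chr13:21810465-21810944, Hist1h3f at chr13:23544052-23545312, Hist1h1a at chr13:23763666-23764406 and Hist2h3c1 at chr3:96246685-96248504. Their newer RefSeq symbols are H2ac23, H3c7, H1f1 and H3c14, and H1foo is now H1f8.

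The stem loop that marks a tail-less histone message was searched for in the transcript models, since it bears on which form of these messages was counted. The conserved histone stem-loop motif was found in 3 of the 7 members, and in 150 of 58797 protein-coding transcripts (0.26%). The sequences below are written as DNA, with the 4 bases of the loop in capitals.
Hist1h2ao: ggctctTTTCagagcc
Hist2h3c1: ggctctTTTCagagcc
Hist1h3f: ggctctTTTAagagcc
Hist1h2ao and Hist2h3c1 shared the whole element, and Hist1h3f differed from them in the loop. The GENCODE models ran 31 bases past the stem loop in Hist1h2ao, 365 in Hist1h3f and 1162 in Hist2h3c1, whereas the RefSeq models named in the table ended 5, 7 and 6 bases past it. No hit was found in the model of Hist1h1a, from which nothing follows for its message. The labels name a single-cell RNA-seq kit and not how the first strand was primed, so whether the counted histone messages had tails was not tested.

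How far each value belongs to 1 gene differed between members. Deposited values were CPM, the reads of a gene scaled to the depth of the embryo, and dividing by the CPM of 1 read gave whole reads in every embryo under 300 reads for H1foo (77 of 77), Npm2 (63 of 63), Dppa3 (1 of 1) and Hist1h1a (95 of 95; tolerance 0.01 reads). Such values were whole in 4 of 99 embryos for Hist1h2ao, in 21 of 100 for Hist2h3c1 and in 20 of 94 for Hist1h3f. These 3 share sequence with other histone genes, and Hist2h3c1 also with Gm20634, the gene that shared the most of its windows. Of the 30-base windows of their GENCODE models, 423 of 451, 1791 of 1791 and 685 of 1232 also occurred in another gene's transcript. The shares were 0.4% for Hist1h1a, 0.0% for H1foo and 0.3% for Npm2. For Hist2h3c1 and Hist1h3f the GENCODE models (1820 and 1261 bases) are longer than the RefSeq models (664 and 903 bases), for which sharing was not counted. Dppa3 shared 32.6% of windows, among them with its pseudogene Dppa3-ps. The levels of Hist1h2ao, Hist2h3c1 and Hist1h3f are therefore uncertain as to which copy they came from, and the rows of Hist1h2ao and Hist2h3c1 each name 2 loci.

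Upstream sequence was available for 4 members. It is shown because H1foo, Hist2h3c1 and Hist1h1a were positively correlated with each other between head embryos, as described below; Hist1h2ao is the only other member with a sequence. Each line holds the 150 bases before the RefSeq start on the plus strand of GRCm38.p6, with CCAAT on either strand (read as ATTGG on the other) and TATAAA in capitals; the 2 motifs do not overlap.
H1foo, chr6:115944781-115944930: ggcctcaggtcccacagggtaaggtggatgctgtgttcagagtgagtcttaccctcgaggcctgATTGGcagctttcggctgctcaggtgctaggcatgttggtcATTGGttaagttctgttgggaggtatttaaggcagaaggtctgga
Hist2h3c1, chr3:96246535-96246684: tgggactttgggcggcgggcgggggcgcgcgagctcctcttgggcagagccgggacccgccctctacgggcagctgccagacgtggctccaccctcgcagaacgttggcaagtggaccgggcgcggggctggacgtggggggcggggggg
Hist1h1a, chr13:23763518-23763667: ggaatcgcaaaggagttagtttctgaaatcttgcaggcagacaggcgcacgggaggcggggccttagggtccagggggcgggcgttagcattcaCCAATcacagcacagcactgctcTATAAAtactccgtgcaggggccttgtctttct
Hist1h2ao, chr13:21810217-21810366: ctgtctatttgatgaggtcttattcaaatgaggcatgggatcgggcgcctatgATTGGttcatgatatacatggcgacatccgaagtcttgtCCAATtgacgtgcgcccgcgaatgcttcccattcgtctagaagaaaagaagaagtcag
CCAAT occurred at 86 and 45 bases before the start in H1foo, at 97 and 58 in Hist1h2ao and at 56 in Hist1h1a, where TATAAA began 33 bases before the start. Neither motif is in this window of Hist2h3c1. CANNTG, the E-box, occurred once in H1foo and 2 times each in Hist1h2ao and Hist2h3c1, and AAACACA and ATTTGCAT in none of the 4. Of 32851 promoters of the same length, 24.5% held CCAAT, 7.6% TATAAA, 47.7% CANNTG, 3.5% AAACACA and 1.0% ATTTGCAT on either strand, and of 56 other histone promoters 47 held CCAAT and 22 held TATAAA. These matches are a description of the letters and not of sites in use.

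Depth ranged from 529863 to 6058308 reads per embryo, with group medians of 1056545 to 1197679 in head embryos and of 4091156 and 2806572 in cauda and rete whole-sperm embryos. Few detected genes set 3 embryos apart: cauda head Control embryo 19, rete head LP embryo 11 and cauda whole-sperm embryo 5. A score of ribosome biogenesis, the mean log2(CPM + 1) of 68 genes that build ribosomes, had group medians of 6.74 to 7.28 in head embryos and of 4.38 and 4.74 in whole-sperm embryos. Head embryos and whole-sperm embryos differed in depth as well as in preparation, and these cannot be told apart.

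Dppa3 stood first among the members, and by mean log2 level over the 82 head embryos it stood at rank 10 of all 7894 genes. Per kilobase of transcript, median CPM in cauda Control heads was 3365 for Dppa3, 149.7 for Npm2, 130.9 for Hist1h2ao, 97.1 for H1foo, 20.69 for Hist2h3c1, 9.53 for Hist1h1a and 4.795 for Hist1h3f. In that order Npm2, Hist1h2ao and H1foo overlapped between embryos, as did Hist1h1a and Hist1h3f. In whole-sperm embryos of the cauda the order was Dppa3 (1250 CPM per kilobase), Npm2 (388.2), H1foo (237.3) and Hist1h2ao (37.32). Hist1h2ao thus stood below H1foo there.

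**Figure D1:**
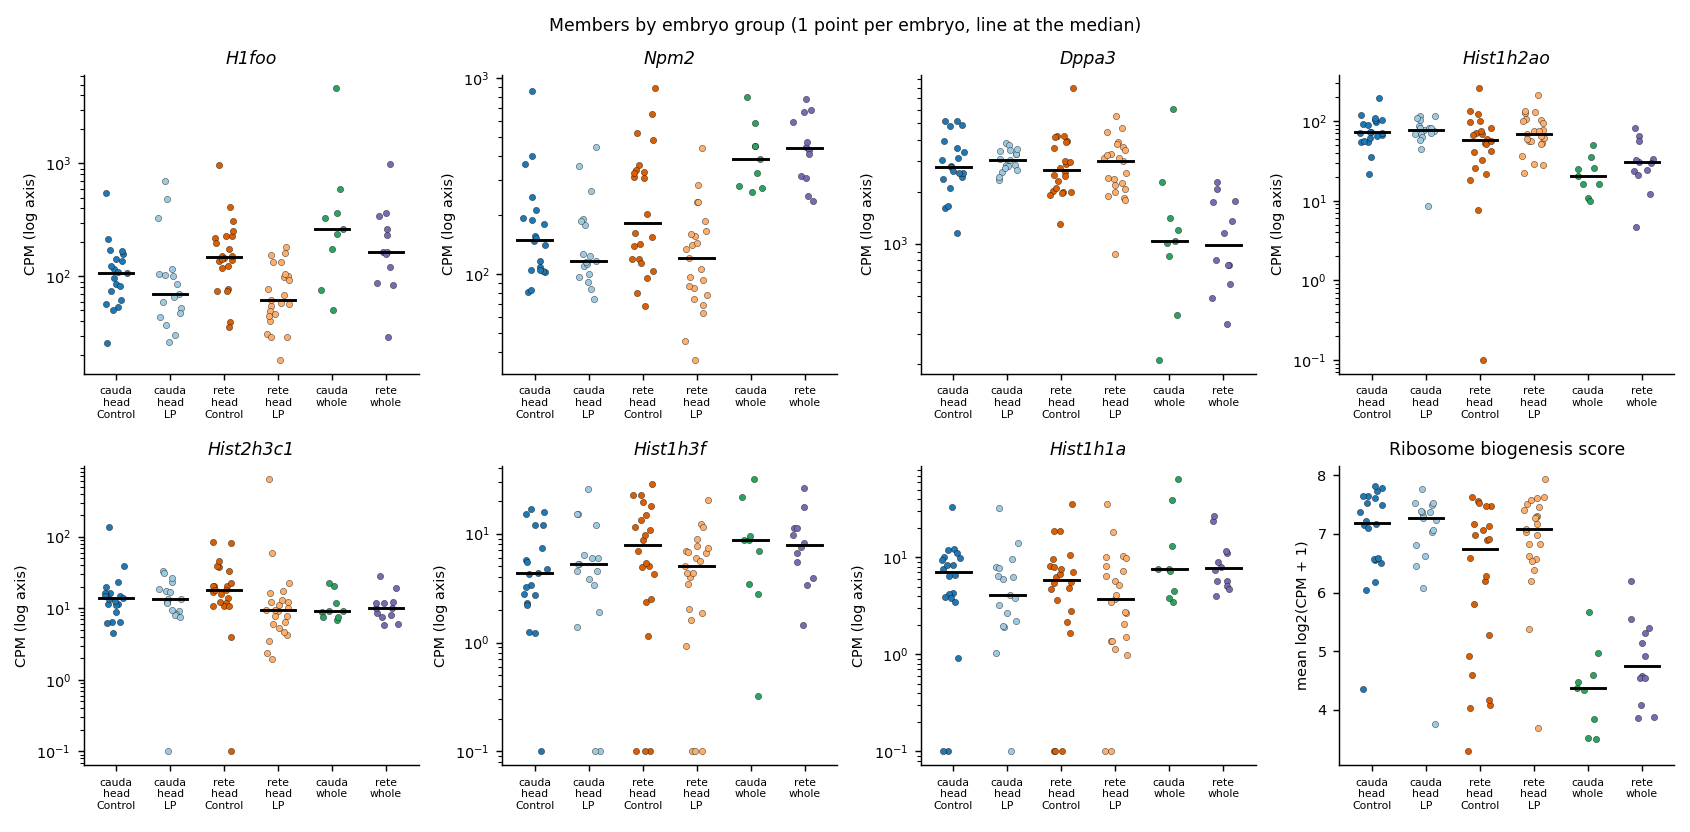
Levels of the 7 genes in every embryo of the 6 groups, as CPM on a log axis, with the ribosome biogenesis score in the last panel; points are embryos and lines are medians. Dppa3 and Hist1h2ao sit lower, and Npm2 higher, in the whole-sperm embryos, and values of 0.1 are those written for 0.

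H1foo, the oocyte linker histone, had from lowest to median to highest 25.5, 108 and 548 CPM in cauda Control heads and 26.1, 70.3 and 707 CPM in cauda LP heads. In rete heads it had 35.4, 149 and 963 CPM with Control males and 18.2, 62.3 and 183 CPM with LP males. Whole-sperm embryos had 50.7, 264 and 4645 CPM for the cauda and 29.3, 164 and 982 CPM for the rete. The groups overlapped throughout, rete LP heads lacked the high values of the other groups, and cauda whole-sperm embryo 5 stood far above all others.

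Npm2, the chaperone, had 80.5, 149 and 860 CPM in cauda Control heads, 74.0, 117 and 446 CPM in cauda LP heads, 68.8, 182 and 888 CPM in rete Control heads and 36.2, 121 and 439 CPM in rete LP heads. Its levels were 262, 387 and 802 CPM in cauda whole-sperm embryos and 234, 438 and 786 CPM in rete whole-sperm embryos. No whole-sperm embryo was as low as the median of any head group.

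Dppa3 had 1155, 2803 and 5155 CPM in cauda Control heads, 2354, 3064 and 3855 CPM in cauda LP heads, 1295, 2681 and 7984 CPM in rete Control heads and 875, 3016 and 5520 CPM in rete LP heads. It had 211, 1042 and 6056 CPM in cauda whole-sperm embryos and 343, 984 and 2265 CPM in rete whole-sperm embryos. Every rete whole-sperm embryo was below the median of each head group, and the cauda whole-sperm embryo with the highest Dppa3 was again embryo 5.

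Hist1h2ao, a core histone H2A gene, had 21.6, 72.2 and 194 CPM in cauda Control heads, 8.53, 76.3 and 117 CPM in cauda LP heads, 0.10, 57.3 and 259 CPM in rete Control heads and 22.2, 69.6 and 210 CPM in rete LP heads. The value of 0.10, in rete Control embryo 14, is the one written for 0. In whole-sperm embryos it had 9.96, 20.6 and 49.8 CPM for the cauda and 4.65, 30.4 and 82.4 CPM for the rete, which is lower than most head embryos.

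The other 3 histone genes were low. Hist2h3c1, a core histone H3 gene, had group medians of 9.10 to 17.95 CPM, and its highest value, 630 CPM in rete LP head embryo 11, was far above the next in that group. Hist1h3f, also an H3 gene, had group medians of 4.33 to 8.73 CPM and was listed at the value for 0 in 9 embryos. Hist1h1a, a linker histone H1 gene, had medians of 3.78 to 7.70 CPM and was at the value for 0 in 8 embryos. A median of 8.0 reads for Hist1h1a and 6.7 for Hist1h3f lay behind a value, so single embryos carry large counting error for these 2 genes.

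Spread between embryos of a group differed between members. Dppa3 had an SD of 0.52 (log2 scale) in head embryos, and 9.6% of the 500 genes nearest to it in level had a lower SD (median 0.83). With Dppa3 at rank 10 nearly all of these genes were lower in level, and the median SD was larger near low genes (1.55 near Hist1h3f). The comparison is thus not one of equal level. In whole-sperm embryos its SD was 1.12. H1foo had SDs of 1.04 and 1.54, while Npm2 was more even in whole-sperm embryos, at 0.56 against 0.88 in head embryos. Cauda LP heads were the most even group for Dppa3, with a coefficient of variation of 14.7% against 37.0% to 110.4% elsewhere.

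The first comparison asked whether the father's diet changed embryos made with cauda heads. None of the 7 members passed the threshold (limma, Benjamini-Hochberg adjusted p under 0.05 over all genes; 0 of 7 against a background of 0% of 7894 genes, with 165 genes at an unadjusted p under 0.05). H1foo differed by -0.24 (LP minus Control, log2 scale, 95% interval -0.91 to 0.44) and Npm2 by -0.21 (-0.79 to 0.36). Dppa3 was the most tightly bounded, at 0.08 (-0.29 to 0.44). Intervals of the 4 histone genes ran from -1.10 to 0.88.

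With rete heads, H1foo was lower in embryos of LP fathers. The fall was 1.17 ± 0.31 on the log2(CPM + 1) scale (SE; 22 against 23 embryos; limma adjusted p = 0.0304), and 20 of 23 LP embryos were below the Control median, 4 of them below the lowest Control embryo. This was 1 of 7 members, where 1.49% of all genes were called and 1.1% were called lower. Npm2 differed in the same direction by -0.84 ± 0.26 and did not pass (limma adjusted p = 0.0694; 18 of 23 embryos below the Control median). It passed with detected genes as covariate (0.0389), without the 3 embryos of few genes (0.0281), with all embryos in the fit (0.0471) and in 8 of 45 fits with a single embryo left out. It was smaller with weights per embryo (-0.39, limma adjusted p = 0.389) and with the stage index described below as covariate (-0.25, 0.564), and did not pass with the 2 rete groups fitted alone (0.149). Dppa3 differed by -0.04 (interval -0.37 to 0.29). Hist1h2ao differed by 0.58 (-0.04 to 1.20), Hist2h3c1 by -0.68 (-1.44 to 0.09), Hist1h3f by -0.52 (-1.28 to 0.24) and Hist1h1a by -0.31 (-1.06 to 0.45).

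The H1foo call was not firm. It did not pass with weights per embryo (-0.87, limma adjusted p = 0.0892), with the 2 rete groups fitted alone (0.0544) or with a stage index, the ribosome biogenesis score minus a score of maternal transcripts, as covariate (-0.61, 0.276). Leaving out single embryos ended it in 8 of 45 cases, namely rete Control embryos 2, 4, 8, 12, 14 and 15 and rete LP embryos 8 and 9, with adjusted p up to 0.0673. The ribosome biogenesis score moved with the groups: its median was 6.74 in rete Control and 7.08 in rete LP heads, and 7 of 22 Control but 2 of 23 LP embryos lay below the widest gap in the score. Its part in the result was not tested beyond that covariate.

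Serpine2, a marker of the cumulus cells that surround the egg, also fell (-1.39 ± 0.36, limma adjusted p = 0.0304). Only 3 of 15 cumulus markers were in the table, and the other 2 were positive in sign and did not pass. The median difference of the 3 was 0.76. Their summed level ran from 132.9 to 446.1 CPM in rete Control heads (median 251.7 CPM). In rete LP heads it ran from 7.309 to 380.8 CPM (median 284.7 CPM). The part of these markers in the H1foo result was not tested.

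**Figure D2:**
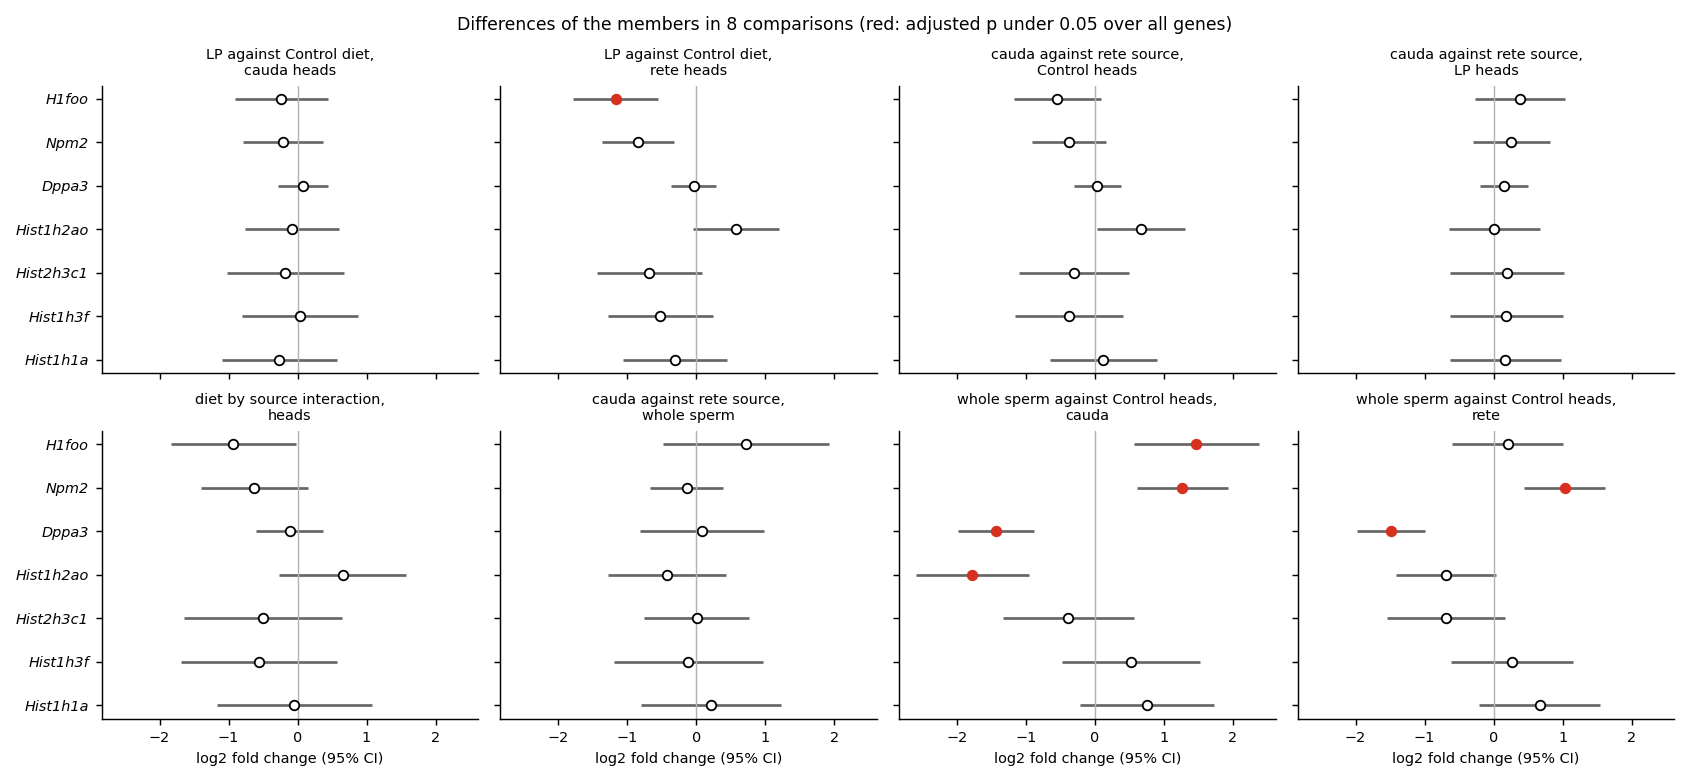
Differences of the 7 genes on the log2(CPM + 1) scale with 95% intervals in the 8 comparisons; red points passed the threshold over all genes. H1foo is the single member past it in the diet comparisons, and 4 and 2 members are past it between whole sperm and heads.

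An interaction term then asked whether the diet difference was itself unequal for the 2 sources. No member passed (0 of 7; background 0.19%). The diet difference of H1foo was -1.17 with rete heads and -0.24 with cauda heads, and the difference between these was -0.93 ± 0.46 (limma adjusted p = 0.54). For Npm2 it was -0.63 (interval -1.40 to 0.15). An effect of diet on H1foo particular to rete heads was thus not shown.

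Sperm source was compared next, cauda minus rete. In Control heads 0 of 7 members passed (background 0.038%), with H1foo at -0.54 (-1.18 to 0.09), Npm2 at -0.37 (-0.91 to 0.17) and Hist1h2ao at 0.67 (0.03 to 1.31, limma adjusted p = 0.214). The Hist1h2ao difference was 0.32 with weights per embryo, 0.23 with the stage index and as low as 0.41 with a single embryo left out. In LP heads 0 of 7 passed (background 0.076%), where the median of all genes was itself 0.14, and H1foo differed by 0.39 (-0.27 to 1.04). These comparisons share embryos with the diet comparisons, so their values are not independent of them. With whole sperm 0 of 7 members passed (background 0% of 7782 genes; 661 at an unadjusted p under 0.05). There H1foo differed by 0.72 (-0.48 to 1.92), and by 0.22 without cauda whole-sperm embryo 5, Npm2 by -0.13 (-0.66 to 0.40) and Dppa3 by 0.09 (-0.82 to 0.99).

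Whole-sperm embryos were set against heads of Control males from the same source. With cauda sperm 4 of 7 members passed, where 58.7% of all genes did (24.4% higher and 34.3% lower), so the share of members is near the background. Dppa3 fell by 1.44 ± 0.28 (limma adjusted p = 8.53e-06), and 8 of 9 embryos were below the head median, 5 of them below the lowest head embryo. Hist1h2ao fell by 1.78 ± 0.41 (limma adjusted p = 0.000162), with 9 of 9 below the median. Npm2 rose by 1.27 ± 0.33 (limma adjusted p = 0.000792), with 9 of 9 above the median. H1foo rose by 1.47 ± 0.45 (limma adjusted p = 0.00416), with 7 of 9 above the median. Without cauda whole-sperm embryo 5 the H1foo difference was 0.97 and did not pass (limma adjusted p = 0.0527), while Dppa3 fell by 1.75.

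With rete sperm 2 of 7 members passed (background 33.6%). Dppa3 fell by 1.49 ± 0.25 (limma adjusted p = 6.93e-06; 12 of 12 embryos below the head median, 7 below the lowest head embryo). Npm2 rose by 1.03 ± 0.30 (limma adjusted p = 0.00609; 12 of 12 above the median). H1foo differed by 0.21 (-0.60 to 1.01) and Hist1h2ao by -0.69 (-1.42 to 0.04). Hist1h2ao passed with weights per embryo (-0.94, limma adjusted p = 0.00218) and without rete Control embryo 14, its lowest value (-0.95, limma adjusted p = 0.0147). Dppa3 passed under every setting tried for both sources and with any 1 embryo left out. With the stage index as covariate H1foo differed by -0.28 for the cauda, opposite in sign, and did not pass. Npm2 then differed by -0.29 for the cauda and 0.33 for the rete and passed in neither, and Hist1h2ao differed by -0.64 for the cauda. Preparation, depth, the stage scores and any difference in day cannot be told apart here.

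Hist2h3c1, Hist1h3f and Hist1h1a did not pass between whole sperm and heads. For the cauda they differed by -0.38 (-1.34 to 0.57), 0.53 (-0.47 to 1.52) and 0.76 (-0.22 to 1.73), and for the rete by -0.69 (-1.55 to 0.16), 0.27 (-0.62 to 1.16) and 0.67 (-0.21 to 1.54). With the stage index as covariate Hist2h3c1 passed for the cauda (-2.13, limma adjusted p = 0.00251) and for the rete (-1.47, limma adjusted p = 0.00486), and with quantile scaling Hist1h1a passed for the cauda (1.11, limma adjusted p = 0.0463).

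Other genes of histone supply were read beside the members. The table held 8 other histone genes, H2afz, H2afv, H2afx, H2afj, H3f3a, H3f3b, H1f0 and Cenpa, and no further gene named for the histone clusters. With LP rete heads 0 of 8 passed (median difference 0.26, against -0.03 over all genes), and H2afx, a variant that marks DNA breaks, was the smallest in p (1.26 ± 0.38, limma adjusted p = 0.0634). Between whole sperm and cauda heads 6 of 8 fell and 1 rose, where 34.3% of all genes fell and 24.4% rose. H3f3a, which encodes the replacement histone H3.3, fell by 1.46 ± 0.22 (limma adjusted p = 3.38e-08) and H2afv, an H2A variant, fell by 2.16 ± 0.36. H1f0, a replacement linker histone, rose by 0.96 ± 0.39 (limma adjusted p = 0.0301). Between whole sperm and rete heads 4 of 8 fell, among them H3f3a and Cenpa, the centromeric H3, where 19.5% of all genes fell and 14.2% rose.

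Among 33 histone chaperones, none passed with LP rete heads, where the median was 0.24. Between whole sperm and cauda heads 14 fell and 2 rose, against 34.3% and 24.4% of all genes. Set, a chaperone and phosphatase inhibitor, fell by 2.44 ± 0.40 (limma adjusted p = 2.16e-07) and Mis18a, which licenses centromeric nucleosomes, fell by 2.43 ± 0.39. Asf1a, which hands over H3 and H4, rose by 1.15 ± 0.40 (limma adjusted p = 0.0106). In the rete 8 fell, among them Npm1, the somatic relative of Npm2, which fell by 0.83 ± 0.19 (limma adjusted p = 0.000621), and 1 rose, against 19.5% and 14.2% of all genes. Npm2 and Npm1 thus passed in opposite directions in the rete comparison.

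Of 27 genes that process histone messages or add tails, 15 fell and 3 rose between whole sperm and cauda heads, and 5 fell and 1 rose for the rete; none passed with LP rete heads. Of all genes 34.3% fell and 24.4% rose for the cauda and 19.5% fell and 14.2% rose for the rete, so the falls in the rete are near the background. Papola, the main poly(A) polymerase, fell by 1.67 ± 0.29 (limma adjusted p = 6.88e-07) and Ncbp1, of the cap-binding complex, fell by 2.42 ± 0.42 in the cauda comparison, whereas Cpsf2, of the cleavage complex, rose by 0.96 ± 0.33. Eri1, an exonuclease that trims the histone stem loop, fell by 2.11 ± 0.52 in the rete comparison (limma adjusted p = 0.00144).

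Of 35 chromatin regulators with maternal roles, 2 fell and none rose with LP rete heads, where 1.1% of all genes fell and 0.393% rose. Suv39h2, a histone H3 lysine methyltransferase, fell by 1.02 ± 0.23 (limma adjusted p = 0.0141) and Eed, of the Polycomb complex, by 0.66 ± 0.18 (limma adjusted p = 0.0335). Suv39h2 also passed the interaction (-1.56 ± 0.34, limma adjusted p = 0.0137), which H1foo did not. Between whole sperm and cauda heads 16 fell and 7 rose, against 34.3% and 24.4% of all genes, and for the rete 10 fell and 2 rose, against 19.5% and 14.2%. Tet3, the oxidase of methylated DNA whose action Dppa3 restrains on the maternal genome, rose by 1.17 ± 0.28 in the cauda comparison (limma adjusted p = 0.000213). In the rete comparison it rose by 0.69 ± 0.25 (limma adjusted p = 0.0261). Dppa3 fell in these comparisons, and a relation between the genes was not tested.

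Oocyte transcripts and ribosome biogenesis genes give the setting of these values. Of 59 oocyte-derived transcripts 4 fell and none rose with LP rete heads (median -0.42), where 1.1% of all genes fell and 0.393% rose. Among those that fell were Obox2 (-1.25 ± 0.27) and Bcl2l10 (-1.28 ± 0.33). Of 68 ribosome biogenesis genes 2 rose, 67 of 68 were positive in sign, and the median was 0.73. Of all 7894 genes 3765 were positive in sign, with a median of -0.03. Between whole sperm and cauda heads 24 oocyte transcripts rose and 6 fell (median 0.69), against 24.4% and 34.3% of all genes, and 65 of 68 ribosome biogenesis genes fell with a median of -2.55. Between whole sperm and rete heads 6 oocyte transcripts rose and 6 fell (median 0.18), against 14.2% and 19.5% of all genes, and 43 of 68 ribosome biogenesis genes fell. The fall of Dppa3 is opposite in sign to 46 of the 59 oocyte transcripts in the cauda and to 36 of them in the rete comparison. Of all 7894 genes it is opposite to 3798 and 4025, so the rete share is not far from that of all genes.

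**Figure D3:**
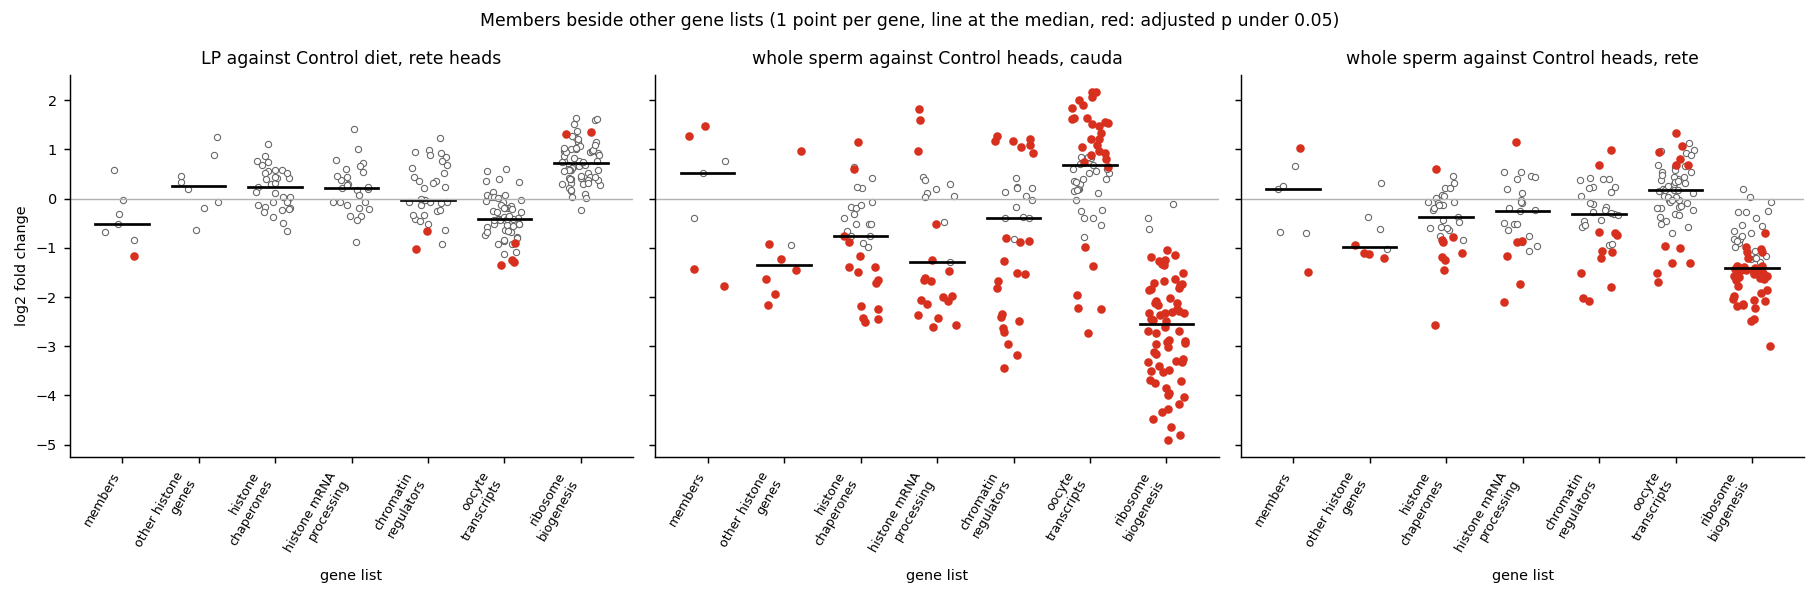
Differences (log2 scale) of the members and of 6 gene lists in 3 comparisons; points are genes, lines are medians and red points passed the threshold over all genes. Of the 68 ribosome biogenesis genes 67 lie above 0 with LP rete heads, and 68 and 66 lie below 0 between whole sperm and cauda and rete heads, where members lie on both sides.

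How the members varied together between embryos was read from correlations of log2(CPM + 1) after group means were removed. Over the 82 head embryos 15 of 21 pairs passed a two-sided permutation test of Pearson r (100000 resamples, adjusted over the 21 pairs). Correlation between genes was common in these embryos: 39.7% of all pairs of genes in the table had an r at least as far from 0 as the weakest pair that passed. H1foo and Npm2 had r = 0.58 (Spearman rho 0.61; adjusted p = 5.2e-05 by permutation, from the smallest p the resamples can give) and r = 0.60 without the 2 embryos farthest from the median. Within the 4 groups r was 0.70, 0.75, 0.56 and 0.40, in the order cauda Control, cauda LP, rete Control and rete LP.

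Hist2h3c1 varied with Npm2 (r = 0.61, rho 0.68, 0.57 without the 2 farthest; 0.58 to 0.67 within groups), with Hist1h1a (r = 0.51) and with H1foo (r = 0.47). Hist1h3f varied with Npm2 (r = 0.53, and 0.20 to 0.65 within groups). Dppa3 did not follow the other maternal genes: its r was -0.34 with Npm2 and -0.16 with H1foo, and the latter did not pass. It varied with Hist1h2ao instead (r = 0.38, but rho 0.22). Size-factor scaling changed the sign of Dppa3 with Npm2 to 0.09 and of Dppa3 with H1foo to 0.16, so the sign of these pairs rests on how embryos are scaled. Some pairs also rest on the 11 head embryos below the widest gap in the ribosome biogenesis score. Without them Npm2 with Hist1h2ao changed from -0.32 to 0.30 and passed with either sign. Npm2 with Hist1h1a (0.195) and with Dppa3 (-0.18) no longer passed, and Hist1h2ao with Hist2h3c1 (0.34) did. H1foo with Npm2 was then 0.57 and Npm2 with Hist2h3c1 0.485, and both passed.

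**Figure D4:**
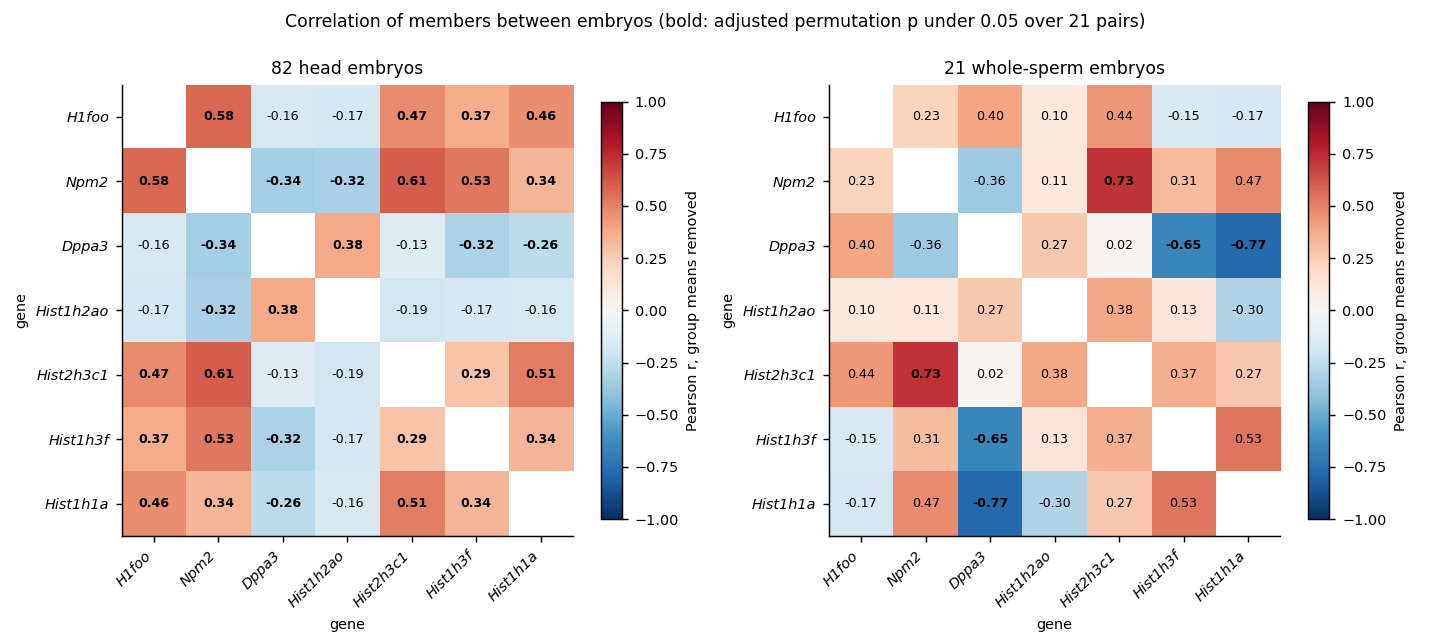
Pearson r between members over 82 head embryos and over 21 whole-sperm embryos, group means removed; bold values passed the permutation test adjusted over 21 pairs. H1foo, Npm2, Hist2h3c1, Hist1h3f and Hist1h1a are positively correlated with each other in head embryos, and Npm2 with Hist2h3c1 in both sets.

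In the 21 whole-sperm embryos, a separate set, 3 of 21 pairs passed, where 2.11% of all gene pairs had an r as far from 0. Npm2 and Hist2h3c1 had r = 0.73 (rho 0.75; 0.90 in the cauda and 0.61 in the rete), as they did in head embryos. H1foo and Npm2 had r = 0.23 and did not pass. Dppa3 varied inversely with Hist1h1a (r = -0.77, rho -0.65; -0.88 and -0.57 within groups) and with Hist1h3f (r = -0.65, but -0.35 without the 2 farthest embryos, and -0.16 in the rete alone). The last relation thus rests on a few cauda embryos: embryos 4 and 7 had the lowest Dppa3 of that group, and embryo 5 had its highest Dppa3 and its lowest Hist1h3f (0.32 CPM).

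The members were set against the ribosome biogenesis score over the 82 head embryos, since it varied widely between embryos. All 7 passed the permutation test adjusted over 7 relations, yet 67.7% of the 7826 genes outside the score had an r as far from 0 as the weakest of them. With size-factor scaling 6 of 7 passed, and Dppa3 did not (r = 0.16, adjusted p = 0.14 by permutation). Npm2 had r = -0.78 (rho -0.82; -0.90, -0.73, -0.82 and -0.65 within groups), and 0.5% of genes had a lower r. Hist2h3c1 had r = -0.65 (rho -0.60) and H1foo r = -0.58 (rho -0.51), with 3.8% and 6.6% of genes lower. Hist1h1a had -0.48, Hist1h3f -0.43 and Dppa3 0.26. Adjusted p was 1.7e-05 for Npm2, from the smallest p the resamples can give.

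Of the head embryos 11 lay below the widest gap in the score, between 5.37 and 5.80, and 7 of them were rete Control embryos. Without them 4 of 7 members passed over 71 embryos: Npm2 (r = -0.71), H1foo (-0.51), Hist1h3f (-0.43) and Hist2h3c1 (-0.39). Hist1h2ao had r = 0.57 over all 82 embryos but -0.21 without the 11, so its positive relation rests on those embryos, and its rank correlation over all of them was 0.30. Dppa3 (0.21) and Hist1h1a (-0.22) did not pass. This set was chosen after the data were seen. In the 21 whole-sperm embryos 0 of 7 relations with the score passed, and r ran from -0.43 for H1foo to 0.26 for Hist1h2ao.

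**Figure D5:**
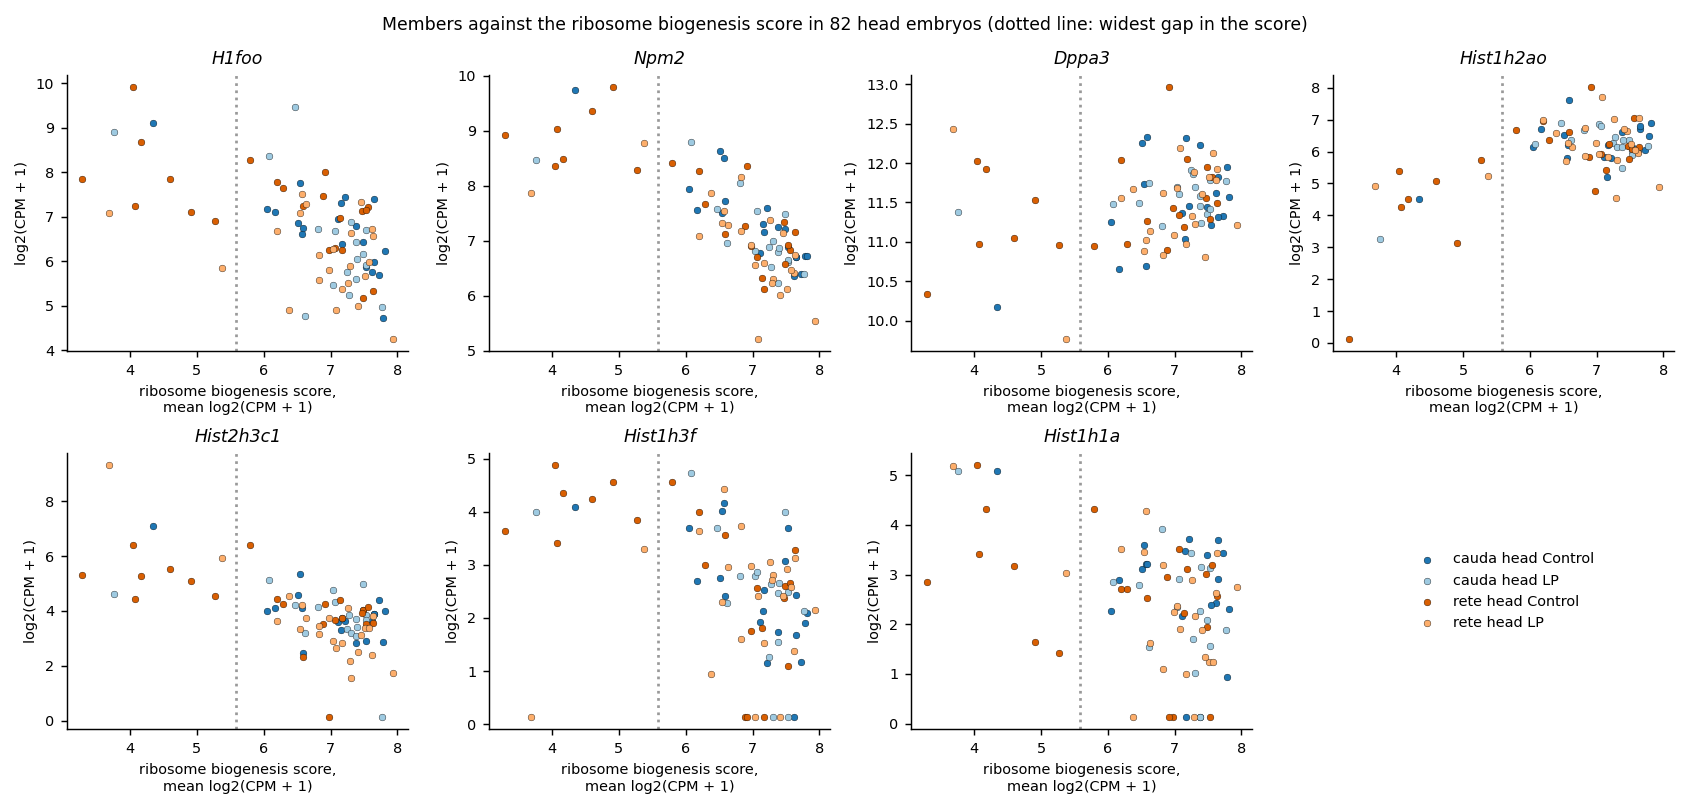
Each member, as log2(CPM + 1), against the ribosome biogenesis score in the 82 head embryos, coloured by group; the dotted line marks the widest gap in the score. Npm2 falls along the whole range, whereas Hist1h2ao is low in the embryos left of the line and does not rise to the right of it.

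Technical measures were read beside these relations, as descriptions over the same embryos. In head embryos r with the number of detected genes was between -0.17 and 0.21 for H1foo, Npm2, Hist1h2ao, Hist1h3f and Hist1h1a. For Dppa3 it was -0.39 and for Hist2h3c1 -0.42. Rete LP head embryo 11 contributes to these last values. It had the fewest detected genes (6095) and the highest Dppa3 and Hist2h3c1 of its group. In whole-sperm embryos H1foo had r = -0.74 with detected genes, a value to which embryo 5 contributes. With log2 depth, r in head embryos ran from -0.29 for Hist1h3f to 0.34 for Dppa3. In whole-sperm embryos it ran from -0.45 for Hist1h1a to 0.44 for Dppa3. The part of detected genes in these relations was not tested beyond the settings given in the closing section, and that of depth was not tested.

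The genes most like each member over the 82 head embryos were named by rank of Pearson r among 7893 genes. For H1foo they were Bcl2l10, an apoptosis regulator of the oocyte (r = 0.75), E330021D16Rik (0.69) and Ifitm6 (0.68), and over the whole-sperm embryos their r was 0.86, 0.93 and 0.59. For Npm2 they were Mea1 (0.85), Gna14, a G protein subunit (0.85), and Nsun4, a mitochondrial RNA methyltransferase (0.83), with 0.71, 0.63 and 0.65 in whole-sperm embryos. Dppa3 was nearest to Gmnn, the inhibitor of replication licensing (0.75), Taf9, of general transcription complexes (0.68), and Apitd1, a kinetochore component (0.67), with 0.79, 0.74 and 0.44 in whole-sperm embryos. For these 3 maternal genes the likeness in head embryos was thus seen again in the whole-sperm set, most strongly for H1foo with E330021D16Rik.

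Hist1h2ao was nearest to Rps3a1, a gene of the small ribosomal subunit (0.75), with 0.38 in whole-sperm embryos. Hist2h3c1 was nearest to Cyb5a (0.70), Sepw1 (0.67) and A730082K24Rik (0.67), and Npm2 ranked 33 among its 7893 genes. Hist1h3f was nearest to Dym (0.60), Cfap58 (0.60) and Wasl (0.60), with Npm2 at rank 36. Hist1h1a was nearest to Cdk20 (0.58), Akr1b3 (0.55) and Bcl2l10 (0.53), and its r with Bcl2l10 was -0.49 in whole-sperm embryos. Hist2h3c1 stood at rank 9 for Hist1h1a, the closest place of any member in another member's order.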

How the data were processed

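The authors deposited 1 table of CPM values, with 1 column per embryo. The unit is not named in the headers and was read from the columns, which summed to 92.08 to 98.15% of the total that CPM allows. Per the submitters' processing notes, Bowtie and mm10 were used; for versions, annotation and strandedness nothing is stated. A further deposited column, a score per gene of unstated origin by which the authors sorted the table, was not used. Zeros were written as 0.1 (2.49% of values). One read was worth 0.1651 to 1.8873 CPM, and a median of 86.9% of low values were whole reads, too few for a count test. Values of Hist1h2ao, Hist2h3c1 and Hist1h3f were mostly not whole reads; how reads that match several genes were assigned is not stated.

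Values were tested as log2(CPM + 1) with limma 3.58.1 in R 4.3.3 (trend, genes at 5 CPM in at least 9 embryos), which understates changes of low genes. The 82 head embryos were fitted together, the 21 whole-sperm embryos alone, and all embryos for whole sperm against heads. Simulated data with known changes were used to check the fits. Correlations used Python 3.11.15. Members and lists were chosen with earlier results of these data known. Named genes were the members, up to 2 per direction of each list past the threshold or the 1 of smallest p, and the 3 genes most like each member, of which some are not reported here. Same-numbered embryos of different groups did not deviate together (mean r 0.003 over 106 pairs), so numbers were not used as pairs.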

Additional observations from a re-analysis of the deposited data

Results flagged for a closer look

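In cauda whole-sperm embryo 5, 2 values lay far above the other 8 embryos of its group. H1foo was at 4645.0 CPM, and Dppa3 was at 6056.3 CPM, against a next highest of 595 and 2291 CPM. The same embryo had the fewest detected genes of its group (6696) and the greatest depth (6058308 reads), and the part of these in its values was not tested. Only this group of 9 embryos was small enough to be examined in this way. For 1 gene with normally distributed values chance flags about 1 in 20 such groups. Here 7 genes were examined as CPM, which is skewed, so flags by chance can be more frequent.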

How the results depend on the processing

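The results were recomputed with pseudocounts of 0.1 and 5, with no filter or one at 10 CPM, with quantile and size-factor (median-of-ratios) scaling, weights per embryo, detected genes or a stage index as covariate, leaving out 3 embryos of few genes, a replicate block, other embryos in the fit and single embryos left out. Closest pairs averaged, cauda whole-sperm embryo 5 left out, single embryos left out of whole sperm against heads, and low-score embryos left out were added after the data were seen. No pair of embryos differed by less than sampling noise, so none was counted as 1. By chi-square of read counts per gene, the closest were rete LP head embryos 20 and 21 (4.36, r = 0.97). Next were rete LP head embryos 22 and 23 (6.35, r = 0.94), against a median of 36.7 over pairs within groups. Such a check cannot show that embryos are independent of each other. For LP rete heads the members called were 1, but 0 with weights per embryo, 0 with the stage index, 0 with 2 groups fitted, 2 with detected genes, 2 without the embryos of few genes and 2 with all embryos in the fit, and 0 to 2 with single embryos left out. The genes called there were 118, but 300 with quantile scaling, 347 with size factors, 435 with detected genes, 809 without the embryos of few genes, 44 with weights, 49 with the stage index, 14 with 2 groups fitted, 76 with closest pairs averaged, and 41 (without rete Control 4) to 788 (without rete LP 11) with single embryos left out. With weights per embryo the genes called went from 0 to 14 for diet in cauda heads, from 3 to 17 and from 6 to 263 between sources in Control and LP heads, from 15 to 74 for the interaction and from 2656 to 4394 between whole sperm and rete heads. With the stage index they went to 17 between sources in LP heads, 42 for the interaction, and 622 (from 4634) and 845 between whole sperm and cauda and rete heads. Between sources in LP heads they were 11 with a pseudocount of 5 or with all embryos, and 0 with 2 groups fitted. The share called higher with LP rete heads was 26.3%, but 49.3% with quantile scaling and 62.8% with size factors. For whole sperm against cauda heads 4 members were called, 2 with the stage index, and 3 to 4 with single embryos left out. The share of genes called higher was 41.6% there and 54.1% with quantile scaling, which moved the median of all genes from -0.08 to 0.24. Dppa3 was then -1.82, Hist1h2ao -1.38, Npm2 1.47 and H1foo 1.56, each past the threshold. Correlated pairs in whole-sperm embryos were 3, but 5 with quantile scaling, 5 with detected genes removed and 6 without embryo 5. Relations with the score were 7, but 6 with size factors, where Dppa3 was lost, and 4 without low-score embryos. Sign changed with weights for Hist1h3f with LP rete heads (0.03), with the stage index for H1foo (0.03) and Npm2 (0.22) between sources in Control heads, and with it for H1foo (-0.28), Npm2 (-0.29), Hist1h3f (-0.76) and Hist1h1a (-0.38) between whole sperm and cauda heads. The cause was not tested. Of 56 member differences 31 were smaller than their SE, and 21 of these changed sign under some setting. The replicate block kept the H1foo call with LP rete heads (-1.19, limma adjusted p = 0.0319), called 138 genes there and changed no call of a member. Counting error limits Hist1h3f and Hist1h1a.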

Other observations

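The remaining marker lists are given as values. Of 18 markers of the 2-cell embryo none passed with LP rete heads, 7 rose and 3 fell between whole sperm and cauda heads, and 6 rose and none fell for the rete. Of all genes 24.4% rose and 34.3% fell for the cauda, and 14.2% rose and 19.5% fell for the rete. Zscan4f, of a gene cluster switched on in the 2-cell embryo, rose by 1.71 ± 0.51 (limma adjusted p = 0.00305) and 1.57 ± 0.46 (limma adjusted p = 0.00658). Its medians were 131.8 and 141 CPM in cauda and rete Control heads and 611.9 and 685 CPM in whole-sperm embryos.

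Of 11 sperm markers 2 were in the table, and none passed with LP rete heads; Ldhc, a lactate dehydrogenase of sperm, differed by -2.85 ± 0.56 between whole sperm and cauda heads (limma adjusted p = 1.36e-05). Of 9 testicular somatic and epididymal markers 2 were in the table, and Gata4, a transcription factor, fell there by 1.75 ± 0.63 (limma adjusted p = 0.0136). The other, Aqp9, was positive in sign there and did not pass. Between whole sperm and rete heads neither passed, with Gata4 at -0.73 ± 0.56. Of the 3 cumulus markers Serpine2 rose by 1.94 ± 0.46 and Amhr2 fell by 4.18 ± 0.75 in that comparison, and their summed level ran from 111.6 to 400.7 CPM in cauda Control heads and from 91.91 to 585.8 CPM in cauda whole-sperm embryos. The part of these markers in the differences of the members was not tested.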
